A study of Mus musculus with 9 samples.

Results

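The Rab GTPases of this data set are the probe sets whose only annotated gene symbol consists of Rab, a number and at most 1 further letter. The rule found 33 genes, measured by 44 probe sets, of 8251 annotated genes and 12422 probe sets that are not controls, and 10 of the genes had more than 1 probe set. Rab20 was named in the rule together with its rise after 30 min, so that rise was known when the genes were chosen. RNA came from TtT/GF, an established line of mouse folliculostellate cells, the non-endocrine supporting cells of the anterior pituitary. The cells were left untreated (n = 3) or received 10 µM NECA, 5'-N-ethylcarboxamidoadenosine, for 30 min (n = 3) or for 120 min (n = 3). NECA is an analog of adenosine that stimulates adenosine receptors. All groups shared a medium with heat-inactivated FBS, and the design text calls the samples of a group replicate cultures. The labels give the untreated cells neither a vehicle nor a time, so handling and NECA cannot be told apart at either time.

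Rab proteins are small GTPases that give each membrane compartment of the cell its identity. A guanine nucleotide exchange factor loads a Rab with GTP on its membrane, the loaded Rab recruits effectors that bud, move, tether or fuse vesicles, and a GTPase-activating protein ends the cycle. A GDP dissociation inhibitor then takes the prenylated Rab back to the cytosol. Most Rabs are made in all cells, while a few are limited to secretory or epithelial cells.

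Of the 44 Rab probe sets, 34 probe sets for 27 genes were tested, having exceeded a signal of 20.5 (the 40th percentile of the table) on 3 or more of the 9 arrays. The other 10 probe sets stayed low: on all 9 arrays Rab17 ranged from 2.74 to 14.7, Rab33a from 1.94 to 6.36, Rab35 from 2.54 to 8.38 and Rab3b from 2.03 to 6.60. Rab23 ranged from 16.3 to 23.6 and Rab8b from 3.89 to 28.0, each above the limit on 2 arrays. The remaining 4 were further probe sets of Rab14, Rab1a, Rab2a and Rab3a, genes that were tested through another probe set. A low signal can come from a poor probe set as well as from a low transcript level. Changes are differences of log2(signal + 7.93), the offset being the 25th percentile of all values, and were tested with limma over all 7851 probe sets that passed the same limit.

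The median signal of an array averaged 37.6 ± 1.04 in untreated cells, and after NECA 34.7 ± 1.03 (30 min) and 34.6 ± 1.63 (120 min; SD over 3 arrays). The Gapdh 3' to 5' ratio, a sign of RNA integrity, was 0.995 ± 0.028, 0.921 ± 0.038 and 0.947 ± 0.029 in the same order (SD, n = 3). Of 8 folliculostellate marker genes, 6 passed the limit, among them S100b, Gfap and Gja1, while Sox2 and Vim did not. By probe set 9 of 16 passed, where 7851 of all 12422 probe sets that are not controls did. Of 9 measured hormone-cell genes, 6 passed (Cga, Gh, Ghrhr, Lhb, Pomc and Prl), through 6 of 11 probe sets. The summed signal over all 11 probe sets of the 9 genes was 372 to 392 in untreated cells, 299 to 366 at 30 min and 250 to 368 at 120 min. For endothelial cells 1 gene of 4 passed (Pecam1), and for macrophages and leukocytes 2 of 5 (Cd68 and Csf1r), Ptprc not among them. The part of these lists in the results was not tested.

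After 30 min of NECA, Rab20 rose and no other Rab probe set passed the test in either direction. Rab20 is a Rab of endosomes and phagosomes. Of the 34 tested Rab probe sets 1 was higher, 0 were lower and 33 did not pass, where 0.357% of all tested probe sets were higher and 0% lower at an adjusted p under 0.05. At an unadjusted p under 0.05, 4 of the 34 differed (11.8%), against 8.57% of all tested probe sets. Without Rab20, whose rise was known beforehand, 3 of 33 did (9.09%), near the share of all.

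The signals of Rab20 (probe set 160608_at) were 28.4, 29.7 and 30.7 in untreated cells, 109, 179 and 93.5 at 30 min, and 67.2, 48.8 and 47.5 at 120 min. All 3 groups were apart: every array at 30 min was above every array at 120 min, and those were above every untreated array. The mean signal went from 29.6 ± 1.14 to 127 ± 45.3 and then to 54.5 ± 11.0 (SD, n = 3 each), a ratio of mean signals of 4.29 at 30 min and 1.84 at 120 min. The rise at 30 min was 1.80 ± 0.21 (SE) on the log2 scale, 3.47-fold, with a 95% interval of 1.33 to 2.26 and an adjusted p of 0.00192 (limma). Among all tested probe sets it ranked as number 5 by size of rise at 30 min. Rab20 was chosen with this rise known, so neither the rank nor the p-value is independent of that choice. Replicate 2 at 30 min was the highest array, and without it the rise was 1.54 (adjusted p = 0.00242). When that Gapdh ratio entered the fit as a covariate, the rise was 1.88 with a larger SE of 0.34 and did not pass (limma, adjusted p = 0.141).

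At 120 min Rab20 was lower than at 30 min. The 30 min arrays, known to be high when Rab20 was chosen, enter this comparison, so it is not independent of that choice. The fall from 30 to 120 min was tested directly and was -1.07 ± 0.21 on the log2 scale, 2.11-fold lower (adjusted p = 0.0163), with a 95% interval of -1.54 to -0.61. This fall did not pass without NECA 120 min replicate 2 (adjusted p = 0.0765) or replicate 3 (adjusted p = 0.077). Against untreated cells the 120 min level stood at 0.72 ± 0.21 (95% interval 0.25 to 1.19) and did not pass (adjusted p = 0.11). It passed with each array scaled to its median (0.82, adjusted p = 0.0438), when the fit held the 2 compared groups alone (adjusted p = 0.0436) and without NECA 30 min replicate 2 (adjusted p = 0.0298).

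**Figure D1:**
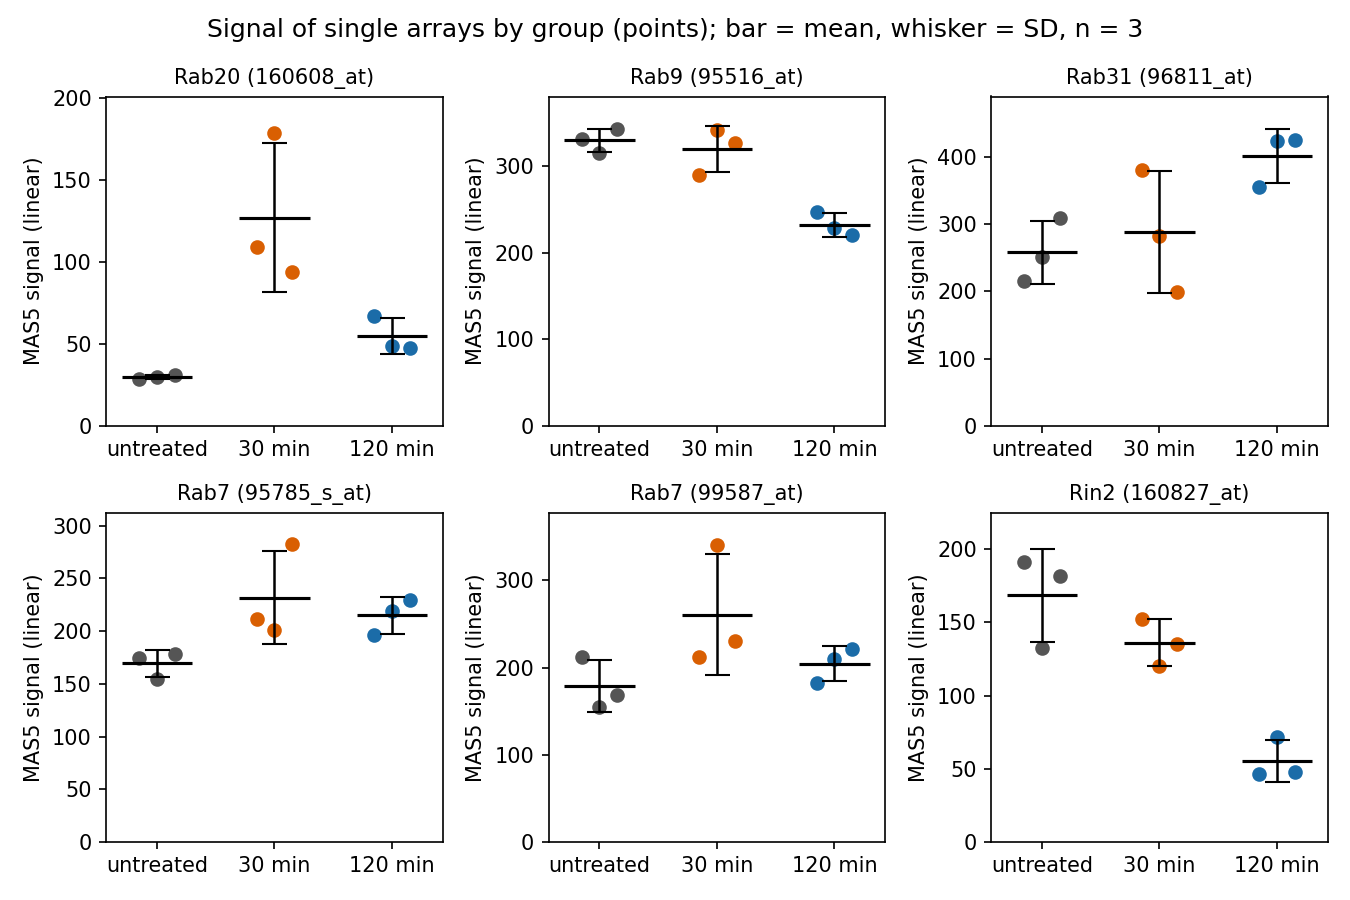
Signal of each array (points, linear MAS5 scale) for Rab20, Rab9, Rab31, 2 probe sets of Rab7 and the Rab5 exchange factor gene Rin2, in untreated cells and after 30 or 120 min of NECA; horizontal bars are group means and whiskers the SD of 3 arrays. Rab20 peaked at 30 min with all arrays at 93.5 or above against at most 30.7 in untreated cells, and Rab9 and Rin2 were lowest at 120 min. For Rab31 the probe set with the higher change at 120 min is shown (96811_at, 0.63), and 161380_f_at (-0.15) is left out.

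Start regions of the Rab genes were searched for TGACGTCA, the cAMP response element bound by CREB-type factors, and for its core TGACG, since some adenosine receptors raise cAMP. Both strands were read, and a TGACGTCA also contains the core. RefSeq windows on GRCm38.p6, each 300 bases long with 250 before the gene's start and 50 after it, were found for 30 of the 33 genes (34 windows), and Rab18, Rab2a and Rab4a had none in the table. The Rab20 window, the region in front of the member that rose, held neither motif, and the 250 bases before its start (chr8:11478641-11478890, minus strand) are shown in full. Those of Rab9 (chrX:166479868-166480117, minus strand), the member lower at 120 min, held neither motif as well. Only exact matches within the windows were counted, so variant sites and sites elsewhere were not looked for.

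Rab20: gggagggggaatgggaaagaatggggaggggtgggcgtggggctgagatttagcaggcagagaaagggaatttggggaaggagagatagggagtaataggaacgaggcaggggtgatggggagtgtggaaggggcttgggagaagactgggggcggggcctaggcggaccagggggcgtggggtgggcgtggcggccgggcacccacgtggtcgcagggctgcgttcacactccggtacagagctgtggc
Rab9: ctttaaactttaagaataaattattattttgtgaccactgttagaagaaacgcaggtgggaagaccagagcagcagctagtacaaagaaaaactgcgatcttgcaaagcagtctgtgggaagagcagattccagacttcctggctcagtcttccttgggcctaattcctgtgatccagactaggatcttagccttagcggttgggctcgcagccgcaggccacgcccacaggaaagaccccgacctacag

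TGACGTCA was found in 2 of the 34 Rab windows (5.88%), against 1.79% of all 32851 windows and 2.23% of those of protein-coding genes. These were the windows of Rab25 (chr3:88548337-88548384, minus strand) and Rab5a (chr17:53479186-53479233, plus strand), shown with 20 bases on each side and the motif in capitals. Neither gene passed the test: the change at 30 min was 0.058 ± 0.18 for Rab25 and -0.075 ± 0.18 for Rab5a (SE). The core TGACG was in 20 Rab windows (58.8%), against 20.8% of all windows and 23.6% of those of protein-coding genes. The windows compared were not matched for base composition, on which such shares depend, and the difference in shares was not tested. A match is a stretch of letters and not a measured binding site.

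Rab25: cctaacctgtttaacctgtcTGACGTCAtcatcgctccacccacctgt
Rab5a: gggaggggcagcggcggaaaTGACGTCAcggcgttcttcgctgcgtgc

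No other Rab of early endosomes and uptake passed the test. This group had 11 tested probe sets for 9 genes, of which 1 was called at 30 min (Rab20) and 0 against untreated at 120 min. Of all tested probe sets 0.357% were higher and 0% lower at 30 min, and 1.83% and 1.54% at 120 min. Rab5c, of the Rab5 proteins that drive early endosome fusion, read 281, 259 and 300 in untreated cells and 218, 198 and 245 at 30 min, so the groups did not overlap. Its difference of -0.34 ± 0.13 did not pass (adjusted p = 0.552), and at 120 min it stood at -0.22. The changes of Rab5a and Rab5b at 120 min were -0.14 and 0.056. Rab5b varied widely, from 7.96 to 41.1 among untreated arrays alone (SE of its change 0.36). Rab4a and Rab4b, which return cargo from early endosomes to the surface, stood at 0.13 and 0.18 at 30 min and at 0.028 and 0.14 at 120 min without passing. Rab21, which carries integrins, stayed between 153 and 208 on all arrays and was the steadiest member, with a residual SD of 0.070 on the log2 scale. All arrays of Rab21 at 120 min lay above all others, yet its change against untreated of 0.20 ± 0.12 did not pass (adjusted p = 0.452). For Rab14, of the endosome and Golgi, the probe sets 104442_at and 97301_at stood at 0.0054 and -0.15 at 30 min, and at -0.39 and -0.15 at 120 min.

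Rab31, a relative of Rab5 that acts between the Golgi and endosomes, had 2 probe sets with unlike values, and neither passed. Probe set 96811_at read 215, 251 and 309 in untreated cells, 381, 283 and 200 at 30 min, and 356, 424 and 426 at 120 min, so the 120 min arrays were all above the untreated ones while the 30 min arrays spread over both. Its difference at 120 min was 0.63 ± 0.21 (95% interval 0.17 to 1.10) and did not pass (adjusted p = 0.167). It passed when the fit held the 2 compared groups alone (adjusted p = 0.0402) and with the Gapdh ratio as a covariate (1.02, adjusted p = 0.0196). The other probe set, 161380_f_at, stood at -0.17 ± 0.15 at 30 min and -0.15 ± 0.15 at 120 min (adjusted p = 0.698 and 0.66). A name ending in _f marks probes shared within a family of sequences.

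Rab9 was the only Rab probe set past the test at 120 min against untreated cells, and it was lower. Rab9 directs transport from late endosomes back to the Golgi. Of 34 tested Rab probe sets 0 were higher, 1 was lower and 33 did not pass, where 1.83% of all tested probe sets were higher and 1.54% lower. With each array scaled to its median the Rab call at 120 min was Rab20, higher, and not Rab9, and over all probe sets 185 of 272 calls were then upward, against 144 of 265. At an unadjusted p under 0.05, 6 of the 34 differed (17.6%), against 15.3% of all tested probe sets. Without Rab20, 5 of 33 did (15.2%), near the share of all.

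The signals of Rab9 (95516_at) were 331, 316 and 343 in untreated cells, 290, 342 and 327 at 30 min, and 247, 229 and 221 at 120 min. The 120 min arrays were below all 6 others, and the untreated and 30 min arrays overlapped. The change at 120 min was -0.49 ± 0.12 on the log2 scale (95% interval -0.76 to -0.23), 1.41-fold lower, and narrowly passed (limma, adjusted p = 0.0465). Across 19 alternative settings the change lay between -0.55 and -0.40 and passed in 8. Leaving out NECA 30 min replicate 2 or 3 kept the call, and leaving out any 1 of the other 7 arrays ended it, with adjusted p-values up to 0.178. It also did not pass with the Gapdh ratio as a covariate (adjusted p = 0.121). Against 30 min the difference was -0.45 ± 0.12 and did not pass (adjusted p = 0.0821).

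Rab7 and Rab24 share the late endocytic route with Rab9. Rab7 takes late endosomes to lysosomes, and Rab24 has been linked to autophagy. Rab7 probe set 95785_s_at read 175, 155 and 179 in untreated cells, 211, 201 and 283 at 30 min, and 196, 220 and 230 at 120 min, with every treated array above every untreated one. Probe set 99587_at read 212, 155 and 169, then 212, 340 and 230, then 182, 210 and 221, and its groups overlapped. The differences at 30 min were 0.42 ± 0.15 and 0.51 ± 0.19, and neither passed (adjusted p = 0.545 and 0.552). At 120 min they were 0.33 and 0.19. A name ending in _s marks probes that can match more than 1 transcript. Rab24 stood at 0.24 ± 0.13 at 30 min and 0.22 ± 0.13 at 120 min, again without passing. Beside Rab9, all 3 other probe sets of this route had positive values at both times, and none passed.

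Among the Rabs of the endoplasmic reticulum and Golgi, 0 of 8 tested probe sets passed in any comparison. Of all tested probe sets 0% to 1.83% passed per direction and comparison, so 0 of 8 is near the share of all. The changes ran from -0.16 to 0.24 at 30 min and from -0.43 to 0.27 at 120 min. Rab2a (94031_at), which acts between the endoplasmic reticulum and the Golgi, read 338, 289 and 447 in untreated cells, 346, 344 and 318 at 30 min, and 281, 271 and 228 at 120 min. The arrays at 120 min lay below all others, and the change of -0.43 ± 0.16 did not pass (adjusted p = 0.217). Without untreated replicate 3, the highest array, it was -0.26. Rab6a, of retrograde and Golgi transport, had probe set 98927_at at 0.27 ± 0.15 and 97222_at at -0.15 ± 0.15 at 120 min, opposite in sign with neither past the test. Rab1a (92882_at), which governs transport into the Golgi, stood at 0.14 and -0.056 at 30 and 120 min, and Rab18, found on lipid droplets and the endoplasmic reticulum, at -0.092 and -0.14. Rab34 stood at 0.24 and 0.075, and the autophagy-linked Rab33b at -0.16 and -0.31 by 97058_f_at and at -0.082 and -0.019 by 103062_at.

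Among the Rabs of recycling and surface delivery, 0 of 7 tested probe sets passed in any comparison. This count too is near the share of all tested probe sets (0% to 1.83% per direction and comparison). Rab11b, of the recycling endosome, read 291, 266 and 266 in untreated cells and 331, 304 and 371 at 30 min, without overlap, yet its 0.28 ± 0.14 did not pass (adjusted p = 0.587), and at 120 min it was back at 0.0076. Its relative Rab11a stood at -0.060 and -0.23 by 92854_at and at -0.27 and -0.18 by 96238_at. Rab8a and Rab10 carry cargo to the plasma membrane. Rab8a stood at 0.095 and 0.036, and Rab10 at -0.0094 and 0.24 by 101933_at but at -0.26 and -0.42 by 160149_at.

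Of the Rab3 group, which serves regulated exocytosis, Rab3d stood at 0.058 at 30 min and at -0.27 ± 0.14 at 120 min (adjusted p = 0.387). The arrays of Rab3d at 120 min were all below those at 30 min (-0.33 ± 0.14, adjusted p = 0.339). Rab3a (160524_at) ranged from 26.4 to 104 on arrays of 120 min alone and had the largest residual SD of the members, 0.78, so its changes of -0.32 and -0.35 had an SE of 0.47. Rab12 and Rab28 were nearly level, at -0.034 and -0.0077 at 30 min and at 0.043 and -0.0042 at 120 min.

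**Figure D2:**
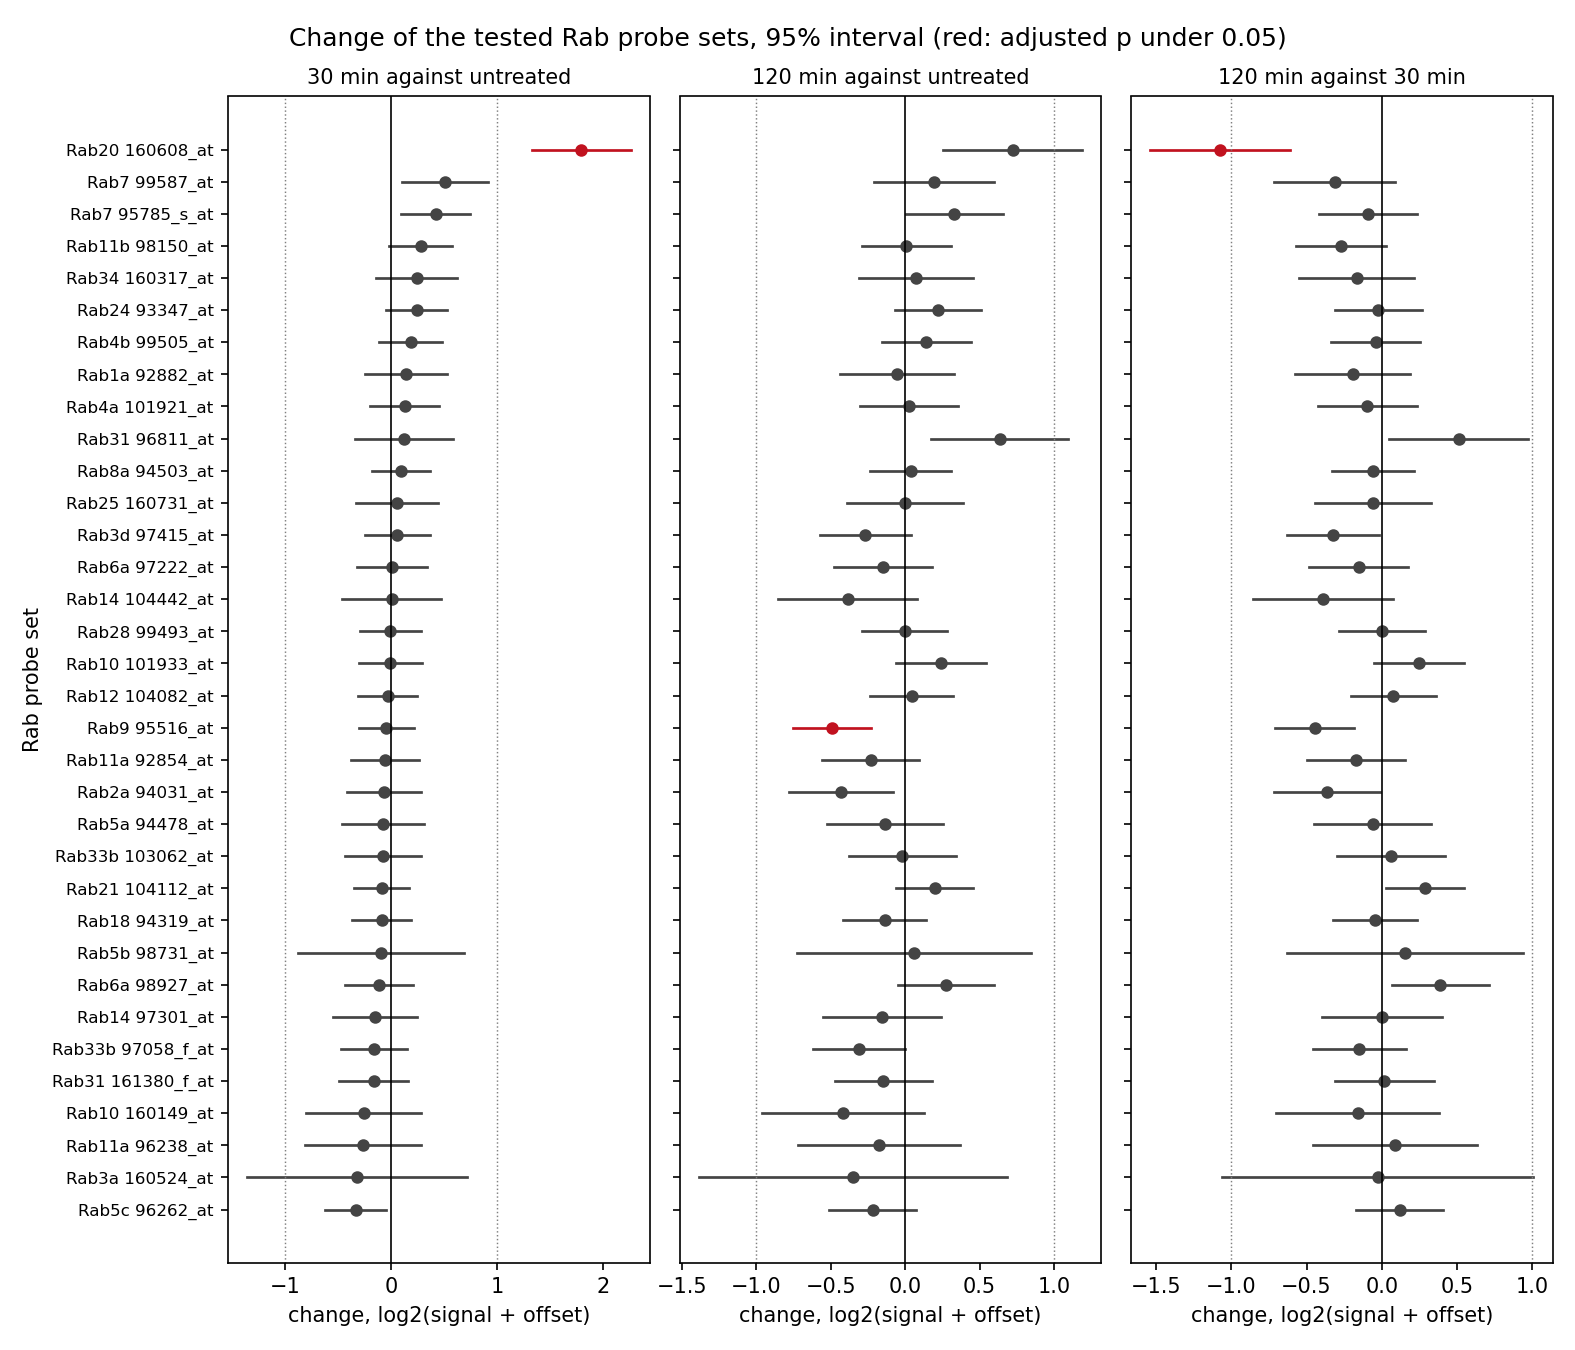
Change of the 34 tested Rab probe sets in the 3 comparisons, on the log2(signal + offset) scale, with 95% intervals from limma; red marks an adjusted p under 0.05 and dotted lines a change of 1 in either direction. Red appears for Rab20 at 30 min (1.80) and from 30 to 120 min (-1.07), and for Rab9 at 120 min (-0.49).

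Over the family, the median of the 34 Rab changes came to -0.022 (30 min) and -0.012 (120 min), beside -0.037 and -0.043 for all tested probe sets, and with each array scaled to its median both Rab medians were positive (0.071 and 0.085). Without Rab20 the changes lay between -0.34 and 0.51 at 30 min and between -0.49 and 0.63 at 120 min. The median size of a change, sign aside, was 0.12 at 30 min and 0.18 at 120 min, beside 0.17 and 0.19 for all tested probe sets.

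A missed threshold does not show that a Rab stayed level, and the intervals say how large a change could have been. At 30 min the 95% interval lay within a 2-fold change either way for 32 of 34 Rab probe sets (94.1%), against 90.1% of all tested probe sets. At 120 min this held for 31 of 34 (91.2%), against 86.8%. The exceptions were Rab20 and the noisy Rab3a (160524_at) at both times, and Rab31 (96811_at) at 120 min.

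All 3 treated arrays were above all untreated arrays for 3 Rab probe sets at 30 min (Rab20, Rab7 and Rab11b), where 6.11% of all tested probe sets were, and below them for 1 (Rab5c), where 8.65% were. At 120 min the counts were 7 above (Rab20, Rab31, Rab7, Rab6a, Rab10, Rab21 and Rab24, none of which passed the test), against 12.3% of all tested probe sets, and 2 below (Rab9 and Rab2a), against 13.0%. The other tested probe sets of Rab31, Rab7, Rab6a and Rab10 overlapped the untreated arrays at 120 min, with changes of -0.15, 0.19, -0.15 and -0.42. That of Rab7 (99587_at) overlapped at 30 min as well.

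**Figure D3:**
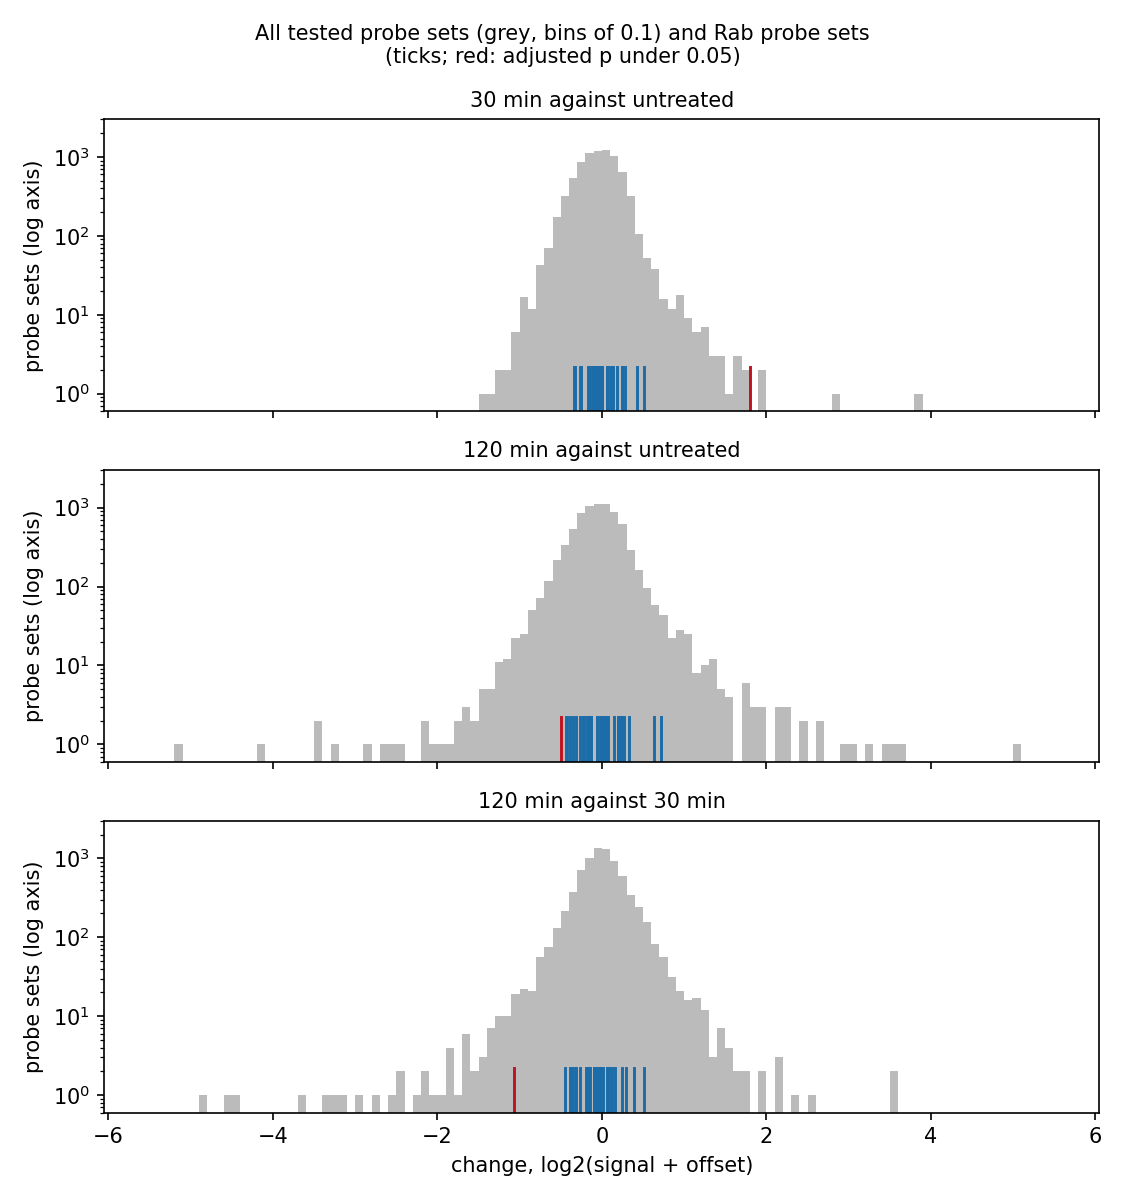
Number of tested probe sets (grey, logarithmic axis) by size of change, in bins of 0.1 on the log2(signal + offset) scale, with the 34 Rab probe sets as ticks; red ticks have an adjusted p under 0.05. Apart from Rab20 the ticks lie between -0.34 and 0.51 at 30 min. The highest of them, the 2 probe sets of Rab7, rank as numbers 168 and 244 of 7851 by size of rise.

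The comparison of 120 with 30 min asked which Rab levels changed between the times. Rab20 fell, 0 Rab probe sets rose and 33 did not pass, where 1.35% of all tested probe sets were higher and 1.62% lower. At 120 min all arrays lay above those of 30 min for 3 Rab probe sets (Rab6a, Rab21 and Rab10; 7.44% of all tested) and below them for 4 (Rab20, Rab9, Rab3d and Rab2a; 9.07%). The differences of Rab6a (98927_at) and Rab21 were 0.39 ± 0.15 and 0.29 ± 0.12, and neither passed (limma, adjusted p = 0.26 and 0.311). The other tested probe sets of Rab6a (97222_at) and Rab10 (160149_at) overlapped between the times, at -0.15 and -0.16.

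Single arrays differed in where the Rab signals lay. NECA 30 min replicate 2 was the highest of its group for 16 of 34 Rab probe sets (47.1%), against 30.4% of all tested probe sets, and untreated replicate 1 for 18 (52.9%), against 31.0%. In the plot of single arrays, Rab14, Rab10 (160149_at), Rab5a and Rab11a (96238_at) were high on both of these arrays. Rab20 was highest on NECA 30 min replicate 2 as well, and it was above all untreated arrays on each array at 30 min.

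**Figure D4:**
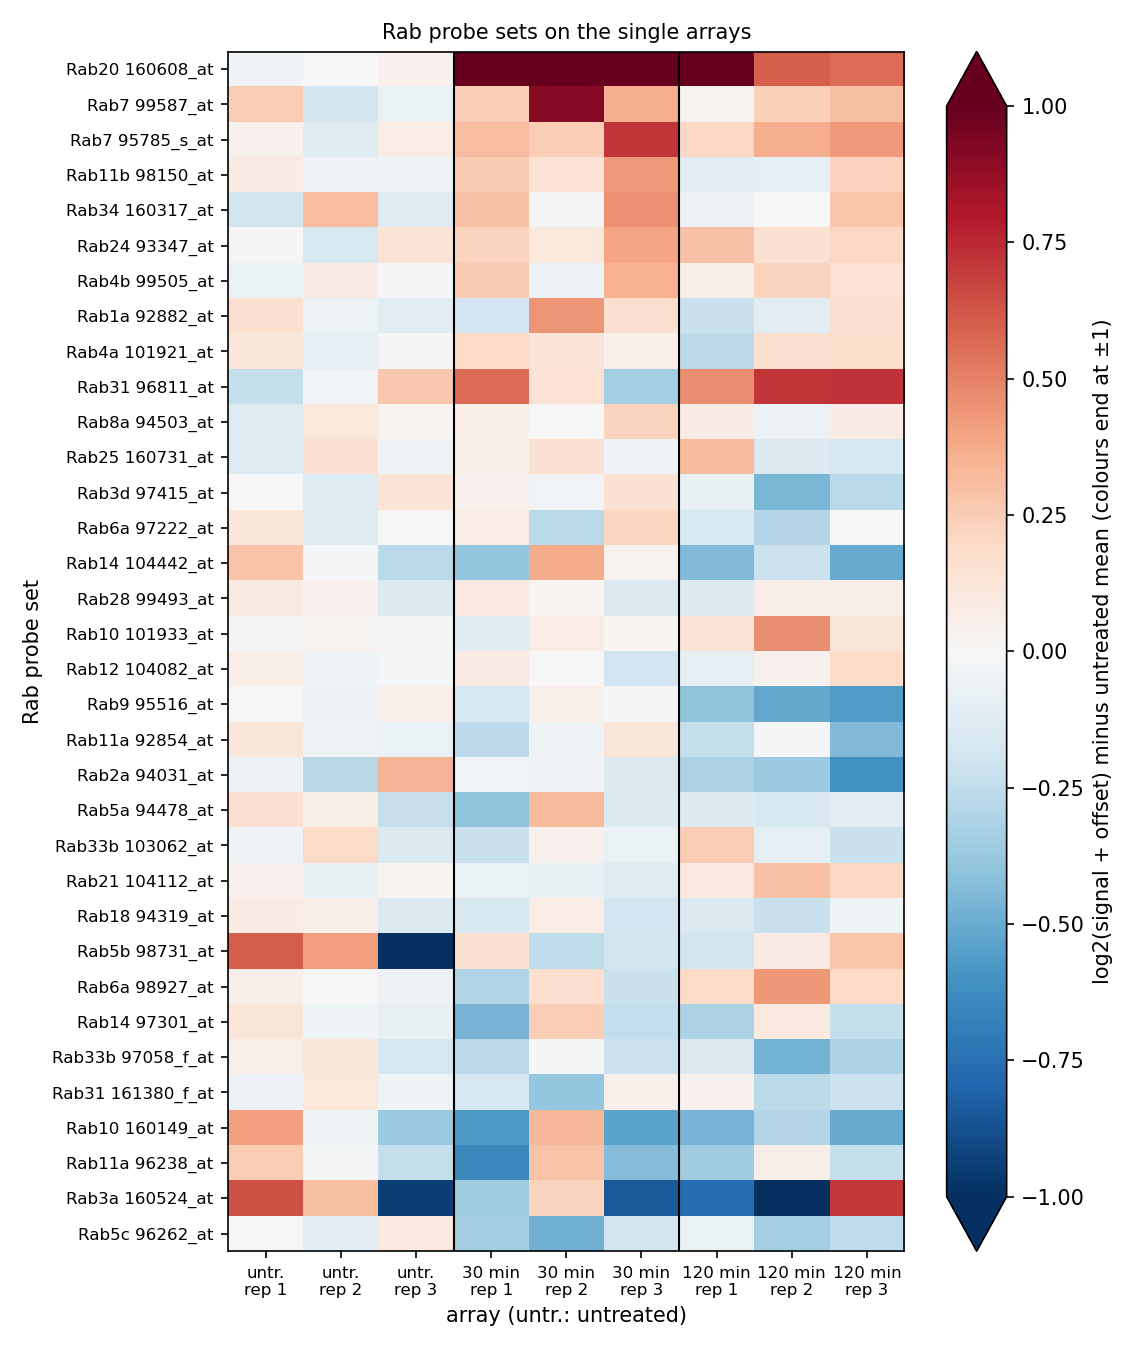
Level of the 34 tested Rab probe sets on each of the 9 arrays as log2(signal + offset) minus the mean of the untreated arrays; red is higher, blue lower, and colours end at 1 in either direction. The top row, Rab20, is red on all 6 treated arrays, Rab9 is blue on the 3 arrays at 120 min, and replicate 2 at 30 min differs in tone from its neighbours in many rows.

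The proteins that switch, carry and read the Rabs were followed with a list of 105 genes, of which 36 were on the array and 33 were tested, through 39 probe sets. At 30 min 0 rose, 0 fell and 39 did not pass. At 120 min 0 rose, 1 fell and 38 did not pass, both against untreated cells and against 30 min. Of all tested probe sets 0.357% were higher and 0% lower at 30 min. At 120 min 1.83% were higher and 1.54% lower against untreated cells, and 1.35% and 1.62% against 30 min. For 39 probe sets the counts of the list are near these shares. The list's median change was -0.11 at 30 min and -0.038 at 120 min, beside -0.037 and -0.043 for all tested probe sets.

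The member that fell was Rin2 (160827_at), an exchange factor that activates Rab5 proteins. It read 192, 132 and 182 in untreated cells, 152, 120 and 136 at 30 min, and 46.3, 71.9 and 47.9 at 120 min, so the 120 min arrays lay below all others while the first groups overlapped. The fall at 120 min was -1.49 ± 0.19 on the log2 scale, 2.80-fold lower than untreated (95% interval -1.89 to -1.08, adjusted p = 0.000599), and passed in all 19 alternative settings, between -1.66 and -1.37. Against 30 min it was -1.20 ± 0.19 (adjusted p = 0.00315), and at 30 min Rin2 stood at -0.28 without passing (adjusted p = 0.633).

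The rest of the list stayed short of the threshold. The exchange factor gene Rab3ip, which acts on Rab8, stood at 0.35 ± 0.12 at 30 min and 0.38 ± 0.12 at 120 min (adjusted p = 0.543 and 0.15), while its second probe set stood at -0.18 and -0.26. Trappc4 and Trappc3, subunits of the TRAPP complexes that act on Rab1, stood at 0.49 ± 0.13 and 0.33 ± 0.13 at 120 min (adjusted p = 0.0812 and 0.248), and Trappc4 passed with each array scaled to its median (adjusted p = 0.0486). Tbc1d10a, a GTPase-activating protein gene, stood at -0.74 ± 0.27 at 30 min by 161791_r_at (adjusted p = 0.552) and at -0.056 by 96131_at. The Rab11 effector gene Rab11fip5 stood at -0.38 ± 0.17 at 30 min, and the Rab5 effector gene Rabep1 (103552_at) at -0.43 ± 0.22, and neither passed. The other Rabep1 probe sets, 101381_at and 102724_at, stood at -0.41 and -0.17 at 30 min. From 30 to 120 min Rabep1 stood at 0.55 ± 0.22 by 103552_at, but at 0.0045 by 101381_at and 0.019 by 102724_at. Rabggtb, a subunit of the enzyme that prenylates Rabs, stood at 0.42 ± 0.15 between these times. Vps41, of the tether that works with Rab7, stood at -0.35 ± 0.15, and none of these passed.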

How the data were processed

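RNA of 9 cultures was measured on 1 Affymetrix mouse GeneChip each, and groups were read from the labels. The deposited table holds 1 signal intensity per probe set on a linear scale, made by the authors with MAS5 per the submitters' processing notes (its version is not given in the sources used here). Arrays were used as scaled. Their 2% trimmed means lay between 100.056 and 100.065. Detection calls were not used here. Gene symbols came from GEO's platform annotation, which can be old. All 44 Rab probe sets matched a RefSeq gene ID with the same symbol (GRCm38.p6).

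Of 12488 probe sets, 66 controls were set aside and 7851 passed the filter. Values were analysed as log2(signal + 7.93) in limma (version 3.58.1, under R 4.3.3), using lmFit over the 9 arrays together, eBayes with an intensity trend, two-sided tests and Benjamini-Hochberg adjustment over the 7851 probe sets of each comparison. Precision is limited by how few arrays there are. The p-values set each difference against a spread between these cultures that limma draws partly from the other tested probe sets.

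The Rab genes, the list of Rab regulators and effectors and the tests were chosen with earlier results of these data known, the rise of Rab20 among them. Named in the text are the called Rab probe sets, the 4 with the smallest p in each direction of each comparison, and, of the other list, the called members and up to 4 with the smallest p in each comparison. The remaining Rab members are given by value or range. Alternatives covered the offset, the filter, scaling, the variance prior, the samples in the fit, the replicate number as a block, the Gapdh ratio as a covariate and each array left out.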

Additional observations from a re-analysis of the deposited data

Results flagged for a closer look

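The change of Rab20 (160608_at) differed between the times by the test of the difference itself. The log2 change from 30 to 120 min was -1.07 (limma, adjusted p = 0.0163), from 1.80 to 0.72 above untreated cells. It did not pass without NECA 120 min replicate 2 or 3. Rab20 was chosen with its rise at 30 min known, so this fall is not independent of that choice. The change of Rin2 (160827_at) differed likewise, by -1.20 (adjusted p = 0.00315), from -0.28 to -1.49 relative to untreated cells.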

How the results depend on the processing

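Over 19 alternatives the rise of Rab20 at 30 min lay between 1.54 and 2.01 and passed in 18. With the Gapdh ratio as a covariate, which an earlier analysis of these data chose after seeing them, 0 Rab probe sets passed at 30 min, and all calls at 30 min numbered 4, against 28. The cause was not tested. The count of Rab calls at 120 min against untreated, 1 by the main settings, was 0 with no intensity trend, 3 when the fit held the 2 compared groups alone (Rab9, Rab20 and Rab31), 0 with the replicate block, and 0 to 2 with single arrays left out. From 30 to 120 min it was 0 to 1 with single arrays left out. The change of Rab9 at 30 min, -0.047, turned to 0.046 with each array scaled to its median, and lay between -0.096 and 0.019 with single arrays left out. None of these passed, and the causes were not tested.

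Over all probe sets the alternatives gave 4 to 85 calls at 30 min, against 28 (15 without untreated replicate 2, 85 without NECA 30 min replicate 2), 151 to 335 at 120 min, against 265, and 151 to 306 between the times, against 233. For the list of Rab regulators and effectors the counts were 0 at 30 min and 1 to 2 at 120 min. Same-numbered arrays of different groups did not as a rule deviate together (correlations from -0.17 to 0.23 over 9 pairs, 1 above 0.1). The pair above 0.1 was replicate 2 at 30 and 120 min. Untreated replicate 1 and NECA 30 min replicate 2, of unlike number, correlated at 0.231. In all, 1 of 9 arrays had its highest correlation with an array of its own number. With the replicate block the rise of Rab20 stayed at 1.80 (adjusted p = 0.00502) and the call of Rab9 was lost (-0.49, adjusted p = 0.0915). Signals near the offset of 7.93, such as those of Rab17 or Rab35, carry little information on change.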
